A study of Homo sapiens with 13 samples.

Results

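Potassium channel subunit genes encode the pore-forming proteins through which potassium ions leave or enter cells. They were taken as the protein-coding genes of GENCODE release 44 on hg19 whose symbol begins with KCNA, KCNB, KCNC, KCND, KCNH, KCNJ, KCNK, KCNQ or KCNN followed by a number. This gave 64 of 19894 protein-coding genes: 15 KCNJ, 15 KCNK, 8 KCNA, 8 KCNH, 5 KCNQ, 4 KCNC, 4 KCNN, 3 KCND and 2 KCNB genes. The choice used symbols only and no measured value.

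The data are ChIP-seq peak lists for H3K4me1, H3K27ac, H3K4me3, Pol II, p300/CBP and CTCF in untreated MDA-MB-231 cells, an established human cell line of the basal B subtype of triple-negative breast cancer, grown under standard conditions. Each of the 6 lists gives peak coordinates without heights or scores. The 2 replicate libraries of an antibody were merged by the authors before peak calling, and p300/CBP had 1 library from pooled immunoprecipitations, so depth and replicate error are unknown here and no test was made. Shares are therefore given as descriptions, with 95% Wilson intervals that cover counting error only, beside the share over all protein-coding genes.

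H3K4me1 marks enhancers and the flanks of promoters, H3K4me3 marks promoters, and H3K27ac is found at active promoters and enhancers. Pol II transcribes protein-coding genes, p300 and CBP are histone acetyltransferases bound mainly at enhancers, and CTCF is a zinc-finger protein that organises chromatin loops. Voltage-gated channels (KCNA, KCNB, KCNC, KCND, KCNQ and KCNH) open upon depolarisation and repolarise neurons and muscle, inward rectifiers (KCNJ) and tandem-pore leak channels (KCNK) set the resting potential, and the KCNN channels open when intracellular calcium rises. In epithelial and tumour cells the same channels set the membrane potential and take part in volume control, and several are known from studies of proliferation.

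A promoter was read as the 3 kb window centred on the TSS of the canonical transcript. It was called active when it shared at least 1 bp with an H3K27ac peak, primed when it shared H3K4me1 or H3K4me3 but no H3K27ac, and unmarked when it shared none of these marks. These names describe the marks and not RNA, which was not analysed here. A gene with no peak had no run above the threshold of that list wide enough to be called. In bulk chromatin, a mark in fewer cells and a weaker mark per cell cannot be told apart. The labelled cell type was checked against marker genes: 7 of 7 basal B markers, VIM and EGFR among them, were active, as were 2 of 7 luminal markers (FOXA1 and ERBB3), 2 of 5 neuronal markers (SYP and SNAP25) and 0 of 5 heart and skeletal muscle markers. Pol II lay in the windows of 7 basal B, 2 luminal, 1 neuronal and 0 muscle markers.

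The promoter sequences of 4 members are shown because they span the 3 classes and a wide range of CpG content. Each run is the sense strand of hg19 from 250 bases before the TSS to 50 bases from it, 300 bases in all, and capitals mark CG dinucleotides. KCNN4 (chr19:44285076-44285375, minus strand) and KCNK1 (chr1:233749602-233749901, plus strand) were active and held 6 and 38 CG dinucleotides, respectively. KCNA7 (chr19:49575907-49576206, minus strand) was primed and held 45. KCND3 (chr1:112532241-112532540, minus strand) was unmarked and held 53, the highest count of the 64 members.
KCNN4: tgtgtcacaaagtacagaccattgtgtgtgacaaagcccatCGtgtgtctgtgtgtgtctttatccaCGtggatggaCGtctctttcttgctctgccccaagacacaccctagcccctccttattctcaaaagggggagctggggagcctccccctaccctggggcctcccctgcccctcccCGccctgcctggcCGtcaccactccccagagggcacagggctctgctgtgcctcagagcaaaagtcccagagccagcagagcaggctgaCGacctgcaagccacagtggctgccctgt
KCNK1: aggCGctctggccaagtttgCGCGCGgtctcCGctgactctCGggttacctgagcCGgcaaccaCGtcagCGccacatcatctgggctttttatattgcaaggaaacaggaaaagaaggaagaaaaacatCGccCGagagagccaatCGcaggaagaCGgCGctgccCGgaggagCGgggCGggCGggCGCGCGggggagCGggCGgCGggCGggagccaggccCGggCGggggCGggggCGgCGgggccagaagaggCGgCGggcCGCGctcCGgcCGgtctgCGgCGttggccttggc
KCNA7: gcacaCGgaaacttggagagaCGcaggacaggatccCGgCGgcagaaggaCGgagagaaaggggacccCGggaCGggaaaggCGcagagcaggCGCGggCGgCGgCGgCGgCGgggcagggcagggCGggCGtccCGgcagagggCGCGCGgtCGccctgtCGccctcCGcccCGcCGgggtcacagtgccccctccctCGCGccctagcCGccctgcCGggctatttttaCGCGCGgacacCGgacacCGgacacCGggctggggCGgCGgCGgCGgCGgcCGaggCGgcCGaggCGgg
KCND3: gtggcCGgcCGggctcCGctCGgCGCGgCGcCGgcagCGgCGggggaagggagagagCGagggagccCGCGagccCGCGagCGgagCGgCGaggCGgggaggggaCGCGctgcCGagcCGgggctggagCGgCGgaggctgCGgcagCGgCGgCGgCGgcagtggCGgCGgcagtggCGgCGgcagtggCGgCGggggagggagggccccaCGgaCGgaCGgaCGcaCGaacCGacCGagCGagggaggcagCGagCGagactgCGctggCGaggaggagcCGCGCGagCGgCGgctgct
Over the 64 members the median was 26 CG dinucleotides in these 300 bases, and over all protein-coding genes it was 23. The medians were 29 in the active, 24.5 in the primed and 28 in the unmarked members.

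Few potassium channel promoters carried H3K27ac. Of the 64 members, 9 (14.1%, 95% Wilson interval 7.58% to 24.6%) were active, against 61.4% of all protein-coding genes. Another 20 (31.2%, 21.2% to 43.4%) were primed, against 8.23% of all genes, and 35 (54.7%, 42.6% to 66.3%) were unmarked, against 30.4%. H3K4me1 lay in 24 of the windows (37.5%, against 59.3%), H3K4me3 in 18 (28.1%, against 62.7%) and Pol II in 8 (12.5%, against 58.4%). CTCF lay in 11 windows (17.2%, 9.88% to 28.2%), against 17.6% of all genes, and this count moved to 2 with 1 kb windows and to 22 with 10 kb windows. No member had a p300/CBP peak in its window, where 3 counts, taken as the limit that a count of 0 allows, would be 4.69% and the Wilson interval reaches 5.66%. Of all genes, 0.769% had one, a share that the members' interval includes. No p300/CBP peak appeared in the members' windows of 10 kb either, for which no share over all genes was computed.

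**Figure D1:**
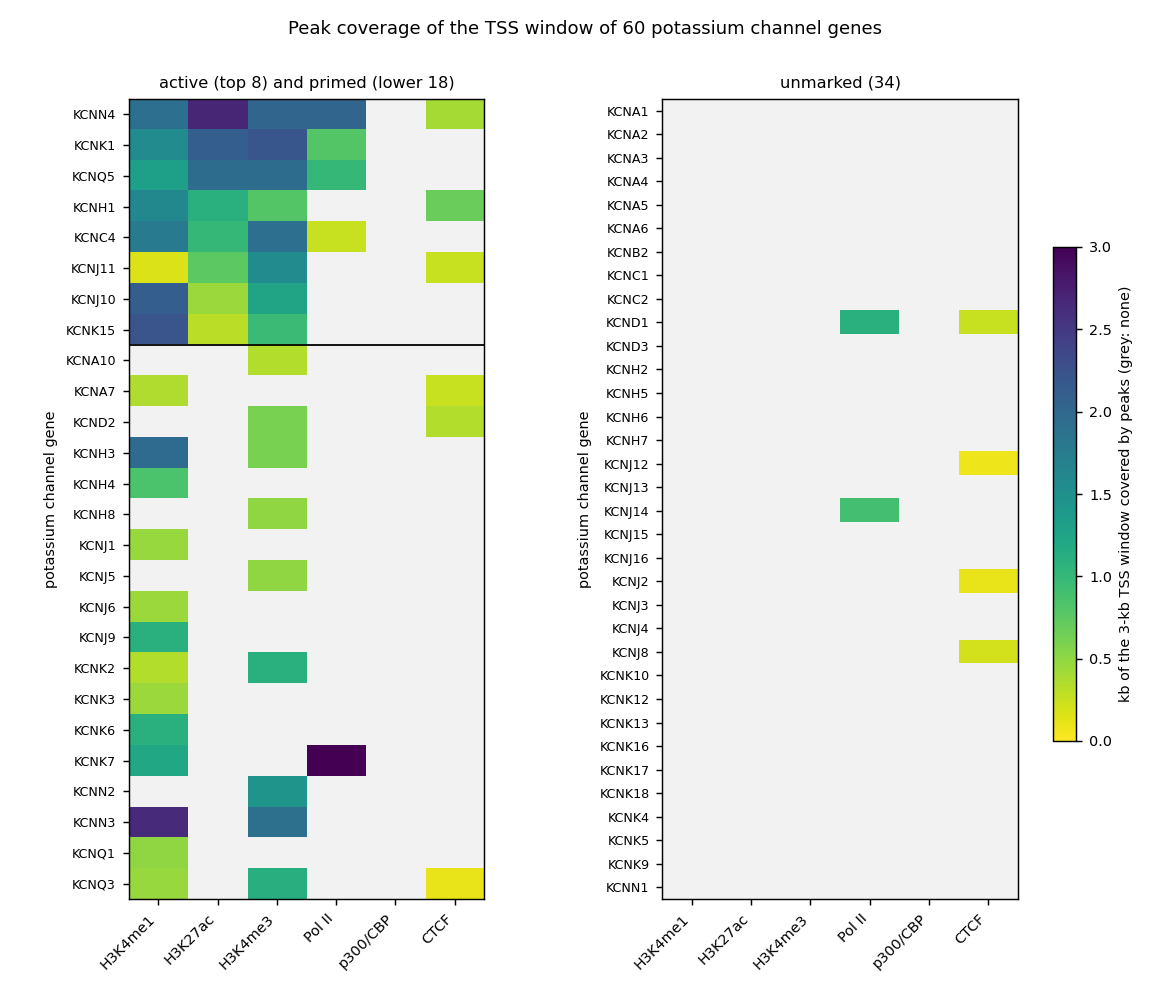
Length in kb of the 3 kb TSS window covered by peaks of each of the 6 lists (colour, grey for none), for 60 of the 64 members: 8 active and 18 primed (left, separated by a line) and 34 unmarked (right). H3K27ac fills 2676 bp of the KCNN4 window and 305 bp of the KCNK15 window, p300/CBP is empty throughout, and Pol II appears in 2 unmarked windows.

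The families were counted separately. The voltage-gated Kv1 genes (KCNA) had 0 of 8 active, 2 primed and 6 unmarked windows. No peak of any list lay in the window or gene body of 4 of the 8 (interval 21.5% to 78.5%). These 4 are unmarked and 2.91 to 8.35 kb long. Of all genes under 20 kb, 27.1% had no such peak, and of all unmarked genes, 45.9%. The other voltage-gated Kv genes (KCNB, KCNC, KCND and KCNQ) had 3 active, 5 primed and 6 unmarked of 14. The calcium-activated genes (KCNN) had 1 active, 2 primed and 1 unmarked of 4. The ether-a-go-go genes (KCNH) had 1 active, 3 primed and 4 unmarked of 8. The inward rectifiers and the tandem-pore channels had the same split, with 2 active, 4 primed and 9 unmarked of 15 each. With 4 to 15 genes a group, the intervals are wide: the share of active genes has an interval of 7.57% to 47.6% in the other Kv group and of 0% to 32.4% in the KCNA genes.

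**Figure D2:**
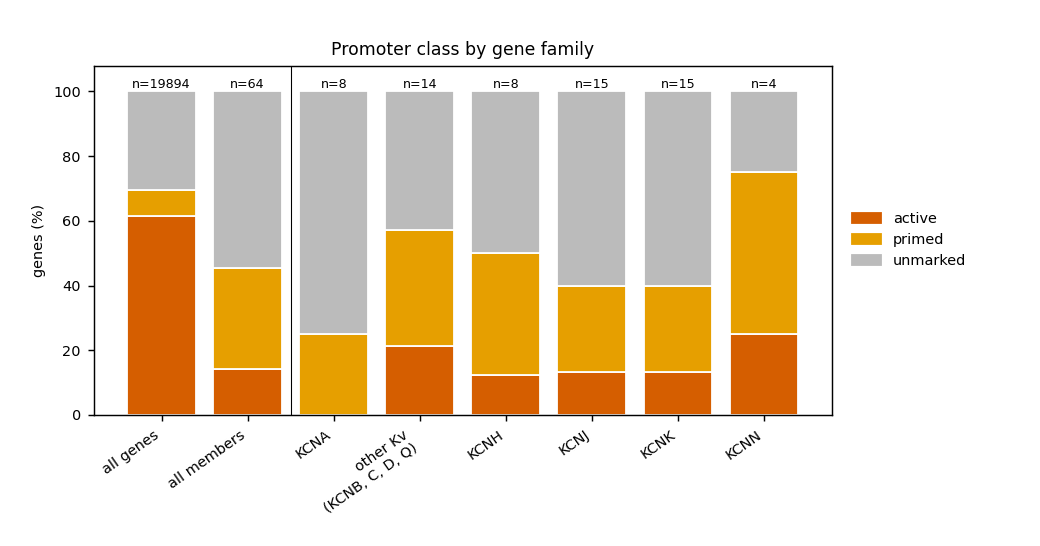
Percentage of genes whose TSS window was active, primed or unmarked (stacked bars), for all 19894 protein-coding genes, all 64 members and each family or group of families, with the number of genes above each bar. The active share is 61.4% of all genes and 14.1% of the members, and no KCNA gene is active.

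KCNN4 had the widest acetylated promoter of the family. It encodes the intermediate-conductance calcium-activated channel of lymphocytes, red cells and epithelia. Its TSS lay under an H3K27ac peak of 5400 bp (chr19:44280901-44286301), which covered 2676 bp of the window, and under 2100 bp of H3K4me3. Pol II was called over 4300 bp, from -0.525 kb to 3.77 kb relative to the TSS, and 3 further Pol II peaks of 1200, 4100 and 5900 bp lay downstream. Pol II peaks covered 79.6% of the gene body of 14.4 kb, and H3K27ac covered 35.6%, the highest share of the 64 members. A second H3K27ac peak of 4550 bp spanned the 3' end of the gene, and a CTCF peak of 400 bp lay in the first 1.07 kb after the TSS. These marks stood on a window with a CpG observed over expected ratio of 0.21, the lowest of the 9 active members.

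KCNK1 and KCNQ5 were the other members with a wide H3K27ac peak over the TSS. KCNK1, a tandem-pore channel of the TWIK type, had H3K27ac over 2100 bp (chr1:233748951-233751051), H3K4me3 over 2200 bp and Pol II over 800 bp, all across the TSS, with an H3K4me1 peak on either flank. Its window held no CTCF. KCNQ5, a Kv7 channel that carries M-type currents in neurons and smooth muscle, had H3K27ac over 2450 bp (chr6:73331351-73333801) and H3K4me3 over 2900 bp across the TSS, and its Pol II peak of 1000 bp began 0.359 kb downstream of it. The KCNQ5 peaks of both marks also held the TSS of KCNQ5-DT, a divergent noncoding transcript.

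KCNH1, which encodes the ether-a-go-go channel EAG1 known from neurons and many tumours, had H3K27ac over 1100 bp (chr1:211306951-211308051) across its TSS and H3K4me3 over 800 bp. No Pol II peak touched its window or its gene body of 457 kb. CTCF peaks of 400 and 350 bp lay in the window, the nearer one from -0.410 kb to -0.0110 kb, inside the H3K27ac peak. KCNH1 was the only member with more than 1 CTCF peak in the window.

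KCNC4 encodes a Kv3 channel, a fast type that shortens action potentials. It had H3K4me3 over 1900 bp across the TSS with H3K27ac of 400 bp before it and 600 bp after it, and a Pol II peak of 250 bp.

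Further active members had narrow H3K27ac and no Pol II in the window. KCNJ11, the pore subunit of the ATP-sensitive potassium channel, had H3K27ac over 750 bp, H3K4me3 over 1550 bp and CTCF over 250 bp. ABCC8, which encodes the sulfonylurea receptor that pairs with it, was unmarked. KCNJ10, an inward rectifier of glia and kidney, had H3K27ac over 450 bp and H3K4me3 over 1250 bp. Its body also held an H3K27ac peak of 1600 bp with H3K4me3 and Pol II, and this stood over the TSS of PIGM, a gene of glycolipid anchor synthesis inside the KCNJ10 locus. KCNK15, a channel of the TASK group, had H3K27ac peaks of 250 and 300 bp and H3K4me3 over 950 bp. KCNJ10 and KCNK15 were no longer active when at least 500 bp of H3K27ac had to lie in the window.

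**Figure D3:**
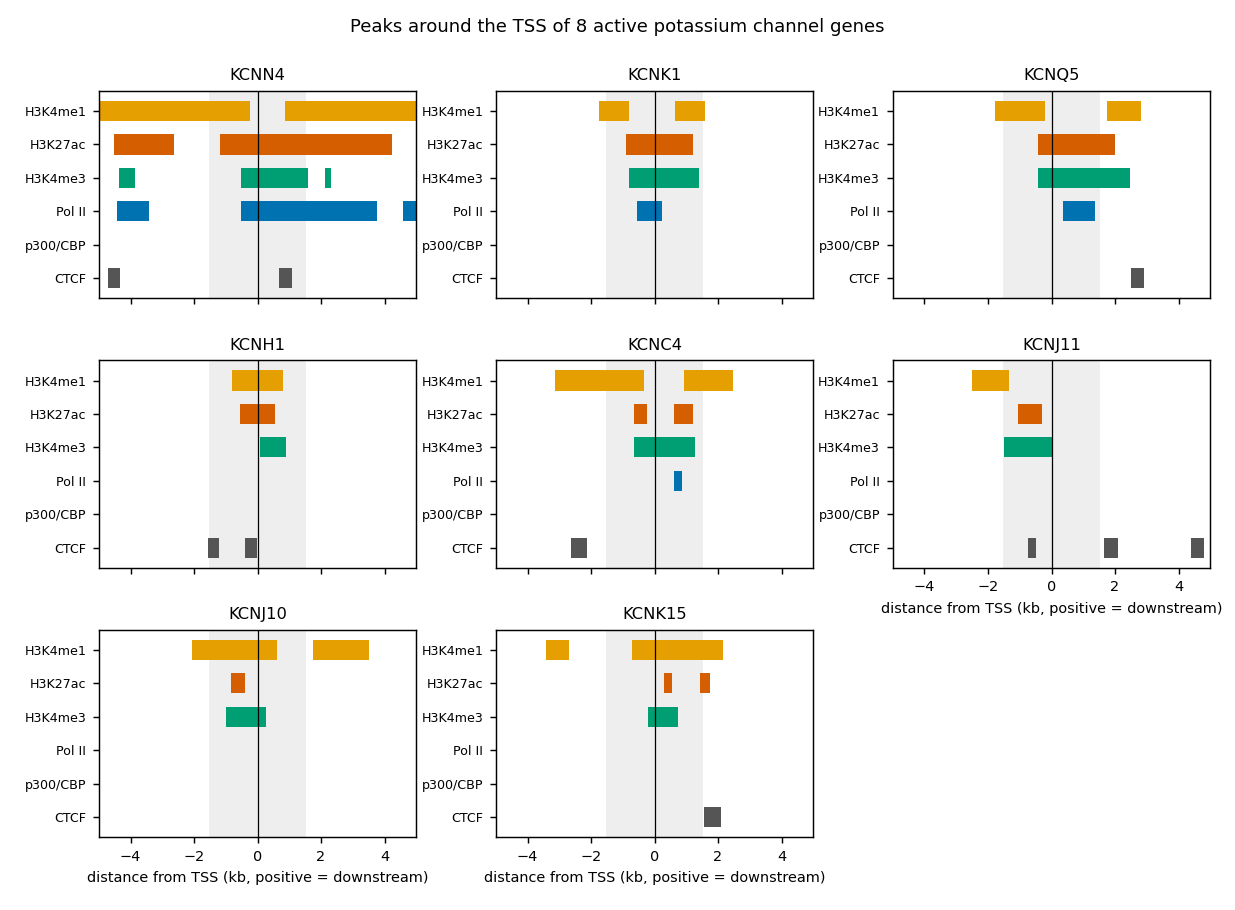
Peaks of the 6 lists within 5 kb of the TSS of 8 active members (horizontal axis, distance from the TSS in kb, positive downstream; grey, the 3 kb window; 1 row of bars per list). Wide H3K27ac bars cross the TSS in KCNN4, KCNK1 and KCNQ5, and no Pol II bar lies in the windows of KCNH1, KCNJ10, KCNJ11 and KCNK15.

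H3K4me1 and H3K4me3 were present at 9 of the 9 active members, and at 85.3% and 97.7% of all active genes. Pol II was present at 5 of them (55.6%, 26.7% to 81.1%), against 92.0% of all active genes, and CTCF at 3 (33.3%, 12.1% to 64.6%), against 24.4%. H3K27ac covered a median of 1000 bp of the window in the active members, from 305 to 2676 bp, against a median of 2000 bp in all active genes.

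Among the 20 primed members, 11 had H3K4me1 and no H3K4me3, among them KCNA7, KCNH4, KCNJ1, KCNJ6, KCNJ9, KCNK3, KCNK6, KCNK7 and KCNQ1. These include the cardiac Kv7 channel KCNQ1 and the TASK channel KCNK3. KCNA10, KCND2, KCNH8, KCNJ5 and KCNN2 had H3K4me3 and no H3K4me1. KCNH3, KCNK2, KCNN3 and KCNQ3 had both. Of all primed genes, 67.4%, 15.8% and 16.7% fell in these 3 groups. The intervals of the members' shares were 34.2% to 74.2%, 11.2% to 46.9% and 8.07% to 41.6%, respectively, and are not a test. With 1 kb windows, 8 of the primed members became unmarked, among them KCNA7, KCNA10, KCNH4, KCNH8, KCNJ1 and KCNK3.

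KCNN3, a small-conductance calcium-activated channel, had the broadest primed window. H3K4me1 covered 2644 bp and H3K4me3 1894 bp of it, with no H3K27ac. KCNN2, its close relative, had H3K4me3 over 1450 bp across the TSS and no H3K4me1. KCNK2, the mechanically gated TREK-1 channel, had H3K4me3 over 1100 bp and H3K4me1 over 350 bp. In KCNH3 2 H3K4me1 peaks covered 1950 bp of the window and H3K4me3 covered 600 bp. In the other primed members H3K4me1 covered at most 1200 bp (KCNK7) and H3K4me3 at most 1109 bp (KCNQ3) of the window.

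Pol II was seen in 1 primed window, that of the tandem-pore gene KCNK7. There a Pol II peak of 8400 bp filled the whole window, and the same peak extended into the neighbouring gene MAP3K11. The KCNQ1 window was the 1 window among the 64 that also held the TSS of another protein-coding gene, TRPM5, a cation channel of taste cells. CTCF lay in 4 primed windows, among them those of KCNA7, KCND2 and KCNQ3.

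Among the 35 unmarked members, Pol II touched the windows of KCND1 and KCNJ14. KCND1, a Kv4 channel of A-type currents, had a Pol II peak of 1100 bp across its TSS and a CTCF peak of 250 bp upstream, and no histone mark in the window. KCNJ14, an inward rectifier, had a Pol II peak of 900 bp across its TSS that also lay in GRWD1, an annotated neighbour. CTCF lay in the unmarked windows of KCNJ2, KCNJ8 and KCNJ12 with 100, 200 and 82 bp, respectively. The unmarked genes included KCNA1, KCNA2, KCNA3, KCNA4, KCNA5 and KCNA6 of the Kv1 family, KCNB2, KCNC1, KCNC2, KCND1 and KCND3 of the other voltage-gated families, KCNH2, KCNH5, KCNH6 and KCNH7 of the ether-a-go-go family, and KCNN1. The unmarked inward rectifiers were KCNJ2, KCNJ3, KCNJ4, KCNJ8, KCNJ12, KCNJ13, KCNJ14, KCNJ15 and KCNJ16, and the unmarked tandem-pore genes KCNK4, KCNK5, KCNK9, KCNK10, KCNK12, KCNK13, KCNK16, KCNK17 and KCNK18. Among them are KCNH2, the hERG channel of cardiac repolarisation, and KCNJ2, the main inward rectifier of heart muscle.

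No peak of any list touched the window or the gene body in 7 members (10.9%, against 13.9% of all genes): KCNA1, KCNA4, KCNA5, KCNA6, KCNJ3, KCNJ13 and KCNK16. KCNA1, KCNA5 and KCNA6 are neighbours on chromosome 12. On chromosome 1, KCNA10, KCNA2 and KCNA3 are neighbours as well, and there KCNA10 was primed and the other two were unmarked.

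The CpG content of the 3 kb windows had close medians in the 3 classes of these genes. The ratio of observed to expected CpG dinucleotides, which is high in CpG islands, had a median of 0.60 in active, 0.59 in primed and 0.61 in unmarked members. Over all protein-coding genes these medians were 0.63, 0.35 and 0.31. In windows of 1 kb the members' medians were 0.76, 0.76 and 0.67, so that the unmarked members were lower there. Of the 33 members with a ratio of at least 0.6, 4 were active (12.1%, 4.82% to 27.3%), 8 primed and 21 unmarked (63.6%, 46.6% to 77.8%). Of the 8618 protein-coding genes with such a ratio, 82.2% were active, 4.36% primed and 13.4% unmarked. Of the 14 members with a ratio from 0.4 to below 0.6, 3 were active (21.4%), against 72.4% of all such genes, and of the 17 members below 0.4, 2 were active (11.8%), against 18.1%. The members' intervals for the active share were 7.57% to 47.6% from 0.4 to below 0.6 and 3.29% to 34.3% below 0.4. These intervals describe counts of genes and are not a test. KCNK12 and KCNA3 were unmarked with ratios of 0.84 and 0.83, and KCNC4 was active with 0.80.

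**Figure D4:**
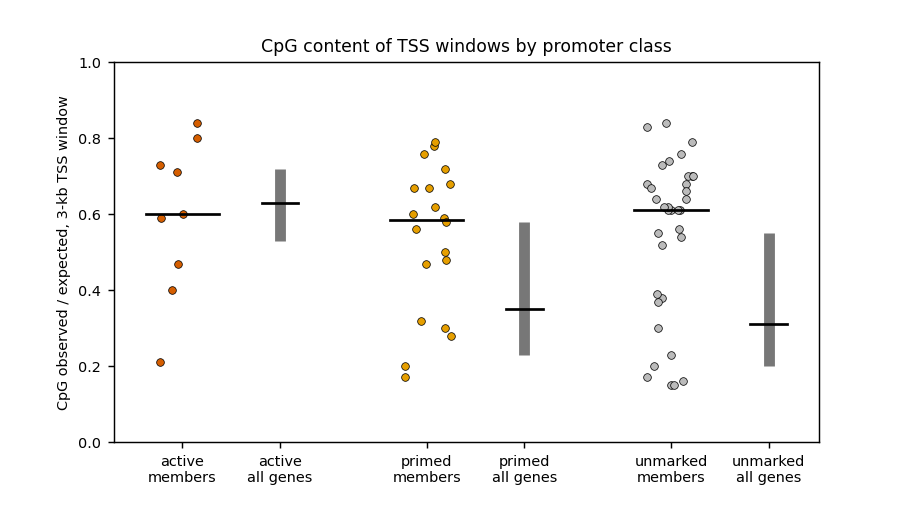
CpG observed over expected in the 3 kb TSS window (vertical axis, a ratio) for the active, primed and unmarked members (points, 1 per gene, with the median as a line) and for all protein-coding genes of the same class (grey bars from the lower to the upper quartile, with the median as a line). The medians of the 35 unmarked members (0.61) and of all unmarked genes (0.31) lie apart, and those of the active members (0.60) and all active genes (0.63) lie close together.

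Gene length differed too, with a median of 42.1 kb in the members and 27.6 kb in all genes, and the active share was lower than that of all genes at each length. Of the 21 members under 20 kb, 2 were active (9.52%, against 51.5% of all genes of that length), of the 20 members from 20 to below 100 kb, 5 were active (interval 11.2% to 46.9%, against 70.1%), and of the 23 members of 100 kb or more, 2 were active (8.70%, against 64.9%).

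Some gene bodies held marks that their promoters lacked. H3K27ac lay in the body or window of 26 members (40.6%, 29.5% to 52.9%), against 71.0% of all genes. Within the classes these shares were close to those of all genes. Among the 35 unmarked members, 9 had it in the body (25.7%, 14.2% to 42.1%), against 22.2% of all unmarked genes. Among the 20 primed members, 8 did (40.0%, 21.9% to 61.3%), against 35.2% of all primed genes. A candidate active enhancer (cAE) was defined as an H3K4me1 peak that overlapped H3K27ac outside all TSS windows, and a candidate inactive enhancer (cIE) as one without H3K27ac outside these windows. A cAE lay in the body of 20 members (31.2%, 21.2% to 43.4%), against 33.1% of all genes, and a cIE in 45 (70.3%, 58.2% to 80.1%), against 47.5%. p300/CBP lay in the body of 9 members (14.1%, 7.58% to 24.6%), against 10.9%, and CTCF in 37 (57.8%, 45.6% to 69.1%), against 50.6%. Pol II lay in the body of 15 members (23.4%, 14.7% to 35.1%), against 63.6%. Longer genes hold more peaks, and the members were longer than all genes. Of the 21 members under 20 kb, 1 held a cAE (4.76%, 0.846% to 22.7%, against 12.3% of all genes of that length), and of the 20 members from 20 to below 100 kb, 6 did (interval 14.5% to 51.9%, against 39.4%). Of the 23 members of 100 kb or more, 13 held a cAE (56.5%, 36.8% to 74.4%), against 66.8% of all genes of that length, and 7 held p300/CBP (30.4%, 15.6% to 50.9%), against 35.2%. A cIE lay in 28.6% of the members under 20 kb, against 18.1% of all genes of that length. The cIE shares were 90.0% against 59.6% from 20 to below 100 kb, and 91.3% against 87.9% at 100 kb or more.

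In all, 68 H3K27ac peaks lay in the bodies of 26 members, and 55 of them were intronic. A body peak was called intronic when it touched no exon of the canonical transcript. Such a peak can lie upstream of the canonical TSS or touch an exon of another transcript. The intronic share over the bodies of all genes was not computed. Likewise, 294 H3K4me1 peaks lay in 52 members (81.2%, 70.0% to 88.9%, against 76.5% of all genes). The largest H3K27ac totals in the body were 18.9 kb in KCNQ5, 9.55 kb in KCNQ1, 8.75 kb in KCNJ6, 8.05 kb in KCNJ15 and 6.25 kb in KCNQ3. Among the largest H3K4me1 totals were 54.5 kb in KCNQ5, 38.0 kb in KCNQ1, 30.1 kb in KCNQ3 and 27.4 kb in KCNJ6. Of these 5 genes, only KCNQ5 was active at its TSS window, KCNJ15 was unmarked, and the others were primed.

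KCNQ5 was the longest member, with 577 kb, and held 11 H3K27ac peaks and 8 p300/CBP peaks. The 3 widest H3K27ac peaks lay in a stretch from 408 to 460 kb downstream, with 2850 bp (chr6:73740201-73743051), 4850 bp (chr6:73782101-73786951) and 3850 bp (chr6:73788101-73791951). All but 1 of the 8 p300/CBP peaks lay in this stretch, and the exception lay 27.7 kb from the TSS. KCNH1 held intronic H3K27ac peaks of 1750 bp at 96.2 kb and of 3500 bp at 249 kb, and its only p300/CBP peak lay in the second.

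KCNQ1 was primed at its TSS but held 5 intronic H3K27ac peaks, and 3 of them carried H3K4me3 and Pol II. The peak of 2800 bp at 254 kb (chr11:2719801-2722601) spanned the TSS of KCNQ1OT1, the long noncoding RNA transcribed against KCNQ1 that is known from imprinting, with H3K4me3 over 2750 bp and Pol II over 1350 bp. The others with Pol II were H3K27ac peaks of 2700 bp at 87.6 kb, with Pol II over 1400 bp, and of 2050 bp at 380 kb, with Pol II over 600 bp. No TSS of a GENCODE basic transcript lay in the latter pair.

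KCNJ6 and KCNJ15, inward rectifiers that are neighbours on chromosome 21, held 7 H3K27ac peaks each, and neither window carried H3K27ac. In KCNJ6 they lay between 36.9 and 281 kb downstream of the TSS and none carried p300/CBP, H3K4me3 or Pol II. In KCNJ15 they lay on both sides of the canonical TSS, the widest of 3350 bp from -86.9 kb to -83.5 kb, and 4 p300/CBP peaks lay between 20.6 and 35.8 kb downstream. The KCNJ15 peak of 3350 bp also held CTCF and a narrow H3K4me3 peak of 300 bp. KCNH7 held 3 H3K27ac peaks of 200 to 1050 bp and 5 p300/CBP peaks, of which 3 lay in cAEs without touching H3K27ac itself.

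**Figure D5:**
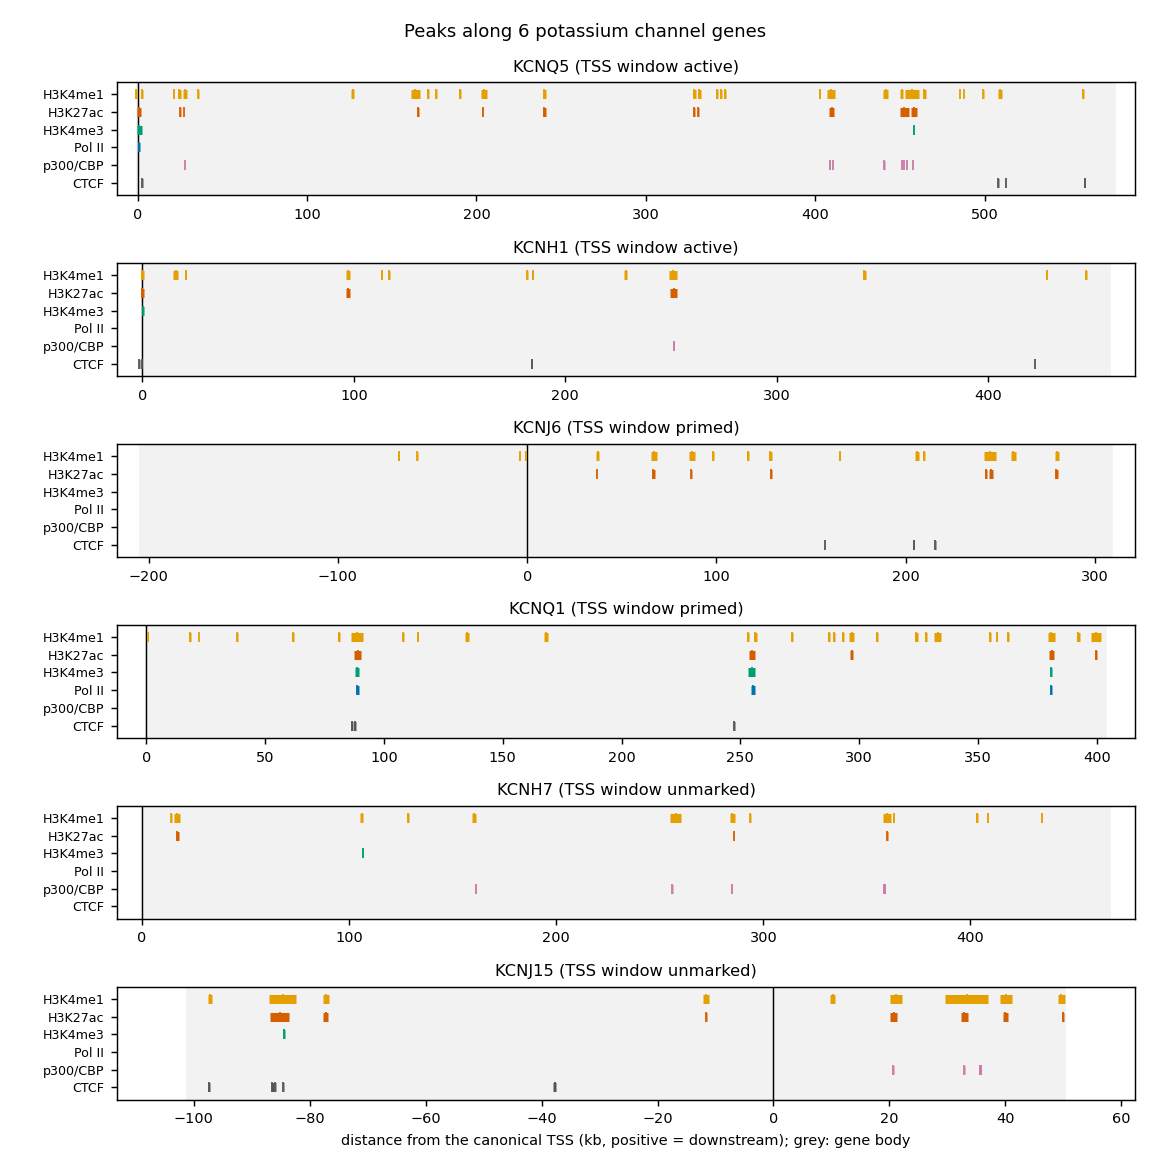
Peaks of the 6 lists along KCNQ5, KCNH1, KCNJ6, KCNQ1, KCNH7 and KCNJ15 (horizontal axis, distance from the canonical TSS in kb, positive downstream; grey, the gene body; each mark is drawn with a minimum width so that narrow peaks can be seen). Of these genes, KCNQ5 and KCNH1 have H3K27ac at the TSS, and the other 4 have it only inside the body, as in the 3 sites of KCNQ1 that also carry Pol II.

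Further unmarked members with acetylated bodies included KCNN1 and KCNJ12. KCNN1, a small-conductance calcium-activated channel, had H3K27ac of 2400 and 1000 bp near its 3' end, from 29.7 kb to 33.8 kb after the TSS, with H3K4me3 over 1650 bp and Pol II over 800 bp. KCNJ12 had H3K27ac of 2250 bp at 24.5 kb and of 1450 bp at 33.8 kb, and near-identical copies of this gene exist in the genome, so uniquely mapped reads may cover it incompletely and its values are uncertain. KCNA2, KCNC1, KCNK13 and KCNJ2 each held 1 H3K27ac peak, of 750, 1200, 1100 and 250 bp. Among primed members KCNQ3 held 3, with a widest one of 4600 bp that carried H3K4me3, Pol II and p300/CBP, and KCND2, KCNJ5, KCNK2 and KCNK3 held 1 each.

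The 25 p300/CBP peaks of the members lay in KCNQ5 (8), KCNH7 (5), KCNJ15 (4), KCNK2 (2), KCNQ3 (2), KCNH1, KCNH5, KCNJ16 and KCNK1 (1 each). All 25 member peaks were intronic by the definition above, 16 lay in cAEs and 4 in cIEs. The same shares over all p300/CBP peaks were not computed, so these counts cannot be called particular to the members. The letters TGANTCA, where N is any base, were searched in these peaks on both strands, where they read the same. The consensus of the AP-1 transcription factors is the narrower form with C or G at the centre, TGACTCA or TGAGTCA, which are the same site on opposite strands. TGANTCA was found in 11 of the 25 peaks (interval 26.7% to 62.9%), and in 28.1% of all p300/CBP peaks. The intervals in this paragraph take peaks as independent. However, KCNQ5, KCNH7 and KCNJ15 hold most of the 25, and some peaks of KCNH7 and KCNJ15 lie next to each other. Width moves with this share: of the 11 peaks of 100 bp, 3 held it (27.3%, against 11.3% of all peaks of that width), and of the 14 wider ones, 8 held it (57.1%, 32.6% to 78.6%, against 42.7%). It was found in 5 of the 11 peaks that touched H3K27ac and in 6 of the 14 that did not, with no share over all peaks computed for either. The narrower AP-1 form was found in 6 of the 25 peaks (interval 11.5% to 43.4%), against 20.7% of all p300/CBP peaks, and in 4 of the 14 wider ones (28.6%, 11.7% to 54.6%), against 32.0%. A match is a description of the sequence and not evidence of binding.

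The following p300/CBP peaks are shown because they stand in the acetylated introns described above, with 1 without H3K27ac (KCNH7) and 1 without the motif (KCNK2) for comparison. Each is the plus strand of hg19, and capitals mark TGANTCA. They lie in introns of KCNH1 (chr1:211056251-211056451), KCNQ5 (chr6:73742351-73742551), KCNJ15 (chr21:39649551-39649651), KCNH7 (chr2:163439001-163439301) and KCNK2 (chr1:215287601-215287801), and the listed end is the first base after the peak.
KCNH1 intron: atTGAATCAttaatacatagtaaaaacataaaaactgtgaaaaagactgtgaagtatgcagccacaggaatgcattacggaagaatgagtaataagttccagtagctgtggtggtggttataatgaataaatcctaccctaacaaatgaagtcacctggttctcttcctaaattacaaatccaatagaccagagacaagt
KCNQ5 intron: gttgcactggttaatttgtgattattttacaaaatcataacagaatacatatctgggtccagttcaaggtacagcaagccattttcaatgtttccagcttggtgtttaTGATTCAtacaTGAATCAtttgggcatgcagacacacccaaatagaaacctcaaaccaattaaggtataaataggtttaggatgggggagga
KCNJ15 intron: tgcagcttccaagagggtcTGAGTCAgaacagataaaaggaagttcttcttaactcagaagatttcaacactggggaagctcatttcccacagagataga
KCNH7 intron: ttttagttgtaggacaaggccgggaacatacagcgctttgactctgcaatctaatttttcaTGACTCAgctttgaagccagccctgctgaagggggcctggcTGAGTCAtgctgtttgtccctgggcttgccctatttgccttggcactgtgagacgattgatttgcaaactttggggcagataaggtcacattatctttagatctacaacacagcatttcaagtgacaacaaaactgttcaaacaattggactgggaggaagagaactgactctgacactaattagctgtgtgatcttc
KCNK2 intron: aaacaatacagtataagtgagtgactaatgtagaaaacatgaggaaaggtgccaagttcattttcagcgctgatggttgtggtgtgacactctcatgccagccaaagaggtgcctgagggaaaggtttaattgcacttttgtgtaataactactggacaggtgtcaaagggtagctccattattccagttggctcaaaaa
TGANTCA occurred 2 times in the KCNQ5 and KCNH7 peaks and 1 time in those of KCNH1 and KCNJ15. The matches in KCNH7 and KCNJ15 are of the narrower AP-1 form, and those in KCNQ5 and KCNH1 are not. Among all p300/CBP peaks of the same width, 37.9% held TGANTCA at 200 bp, 11.3% at 100 bp and 54.5% at 300 bp.

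Related potassium channel genes outside these families, 34 genes for auxiliary, silent and large-conductance subunits, were read in the same way. Of these, 5 (14.7%) were active, 3 primed and 26 unmarked, and 2 had Pol II in the window. The active ones were KCNAB3, a cytoplasmic beta subunit, KCNIP3, a calcium-binding partner of Kv4 channels, KCNG3 and KCNS3, which encode silent subunits that join Kv2 channels, and KCNMB4, a beta subunit of large-conductance channels. H3K27ac covered 623, 1150, 300, 1400 and 600 bp of their windows, respectively. The primed ones were KCNE3, KCNMB1 and KCNT1. This count of active genes rose to 9 when all TSSs were used, with KCNAB2, KCNE1, KCNIP2 and KCNMA1 added.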

How the data were processed

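ChIP-seq peak lists of MDA-MB-231 cells were used for H3K4me1, H3K27ac, H3K4me3, Pol II, p300/CBP and CTCF. The deposited files hold peak positions in base pairs and no score. Per the paper's methods, the authors aligned reads to hg19 with BWA-backtrack (Bowtie2 appears in the submitters' processing notes, with no role), ran PASHA on the alignments and, after merging replicates, called peaks by a signal threshold in IGB. The file names give uniquely mapped reads and 50-bp bins, and mark the histone and p300/CBP signals as scaled and background-subtracted, Pol II as scaled and CTCF as neither. Thresholds were 30 for H3K4me1 and H3K4me3, 50 for H3K27ac, Pol II and CTCF, and 60 for p300/CBP. The minimum width was 50 bp for p300/CBP and CTCF, 100 for Pol II, 150 for H3K27ac and H3K4me3 and 250 for H3K4me1. Regions closer than a gap of 50 bp (p300/CBP, CTCF), 500 (H3K27ac, H3K4me3), 800 (Pol II) or 1000 (H3K4me1) were merged. Peak widths and covered bases depend on these gaps. Inputs were not analysed here.

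The end of a peak was read as exclusive. Genes came from GENCODE 44 on GRCh37 in place of RefSeq, with 1 canonical TSS per protein-coding gene, and chromosome lengths were compared with the lists first. Overlap meant at least 1 bp. Python 3.11.15, NumPy 2.4.6, SciPy 1.17.1, pysam 0.24.0 and matplotlib 3.10.9 were used, and the overlap functions were tested on simulated data. No hypothesis test was made.

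Active and primed members were named, and unmarked members were named by family, with values for those ranking first by peaks in window or body, and the 5 members with the most H3K27ac and H3K4me1 in the body were named. The members were taken by a rule on symbols only. That rule, the related genes, the marker lists and the sequences shown were chosen with earlier results of these data known. Results that need some of the members are not reported here, and figures of single genes show 60 of the 64.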

Additional observations from a re-analysis of the deposited data

How the results depend on the processing

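Counts over the TSS windows were computed again with 1 kb and 10 kb windows, with peaks below the median width of each list removed, with a shared stretch of 500 bp or the peak centre, and with all TSSs. Of the body counts, those of H3K27ac and cAEs had alternatives, and those of cIEs, Pol II, p300/CBP and CTCF had none. Of 73 values for 15 results, 53 stayed within 1.5 times the main count or within the spread and 20 moved further. The cause of these moves was not tested. Among the 53 are counts without read-through members, of which there were 0, so these counts could not differ. Also among the 53 are counts without the 1 member whose window held another protein-coding TSS, which could differ by at most 1. The p300/CBP window count was 0, so with 1 kb windows, wide peaks only or the peak centre it could not differ. These counts are among the 53 too. With the 1 kb window, 12 members were primed, 14 had H3K4me1 and 2 had CTCF. With the 10 kb window, 23 were unmarked, 37 had H3K4me1 and 22 had CTCF. With wide peaks only, 3 were active (KCNK1, KCNN4 and KCNQ5), 14 had H3K4me1, 10 H3K4me3, 5 Pol II and 5 CTCF in the window, 16 had H3K27ac in body or window and 12 a cAE in the body. A cAE was found in the body of 11 members when 50% of the H3K4me1 region had to be acetylated, and within 50 kb of the TSS of 33. No share over all protein-coding genes was computed at these alternative settings. The median distance from the TSS to the nearest cAE was 42.1 kb in the members and 33.5 kb in all genes. Active genes among the 34 related ones numbered 3 with the 1 kb window, 9 with the 10 kb window, 1 with wide peaks and 9 with all TSSs. The narrower AP-1 form was in 6 of the members' p300/CBP peaks, against 11 for TGANTCA. The narrower form, these settings for the related genes, and those for CpG content were chosen after seeing the data. With all TSSs, 4 members (KCNA2, KCND1, KCNJ12 and KCNN1) went from unmarked to primed.

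No paired analysis was possible because each list holds peaks called on both libraries together, so leaving out a replicate was not run, nor was a stricter threshold, which needs values per peak. The lists give no depth, so a mark below the threshold cannot be told apart from an absent one.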
